A study of Homo sapiens with 16 samples.

Results

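The binding of p65 to chromatin was measured by ChIP-Seq in SW480 cells, a human colorectal adenocarcinoma line, after 30 min with TNFα at 30 ng/ml. The SW480 data comprise 8 of the 16 libraries of the study, with 3 p65 ChIP libraries and 1 input of cells stably transfected with an empty vector (mock), and the same numbers for cells stably transfected with ERβ. No cells without TNFα were included, and no estradiol was added in the study. ERβ was expressed from a construct, and whether each transfected line is 1 clone is not given in the sources used here. Per the study's methods the ERβ inputs are held under another deposited series, and whether they were prepared with the ERβ ChIP libraries is not given in the sources used here. HT29, a second colorectal adenocarcinoma line with the same design, is used below only to show where SW480 differs.

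The signal is the density of sequenced tags per base, scaled so that all libraries have the same total, and a value of 0.35 is close to the mean over the genome. Because of this scaling the depth of each library cannot be read from the signal. The study reports mapped reads per sample, which were not used here. For each of 19962 protein-coding genes, the 200-bp bin with the highest mean of the 6 ChIP libraries was taken from 10 kb upstream to 2 kb downstream of the transcription start site (TSS). The ratio of that mean to the mean of both inputs, with inputs floored at 0.35, ranked the genes. Since the ratio chose the genes, it is given as a description without a test. The highest bin lies above the mean of its window by construction, so a ratio somewhat over 1 needs no binding.

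p65, encoded by RELA, is a subunit of the NFκB transcription factors. In resting cells IκB proteins hold NFκB in the cytoplasm. TNFα leads to the degradation of IκB, p65 enters the nucleus and binds DNA at κB elements, and among its best known targets are the genes of IκB proteins and of other NFκB inhibitors, which form a negative feedback. Further known targets encode chemokines, adhesion molecules and inhibitors of cell death.

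Most of the bins with the highest ratios held κB sequences. The 8 highest-ranked genes whose bin held a match to the κB consensus are shown first. The rank is by ratio to input, and some bins not shown had a higher ChIP signal than some of these. Each stretch is 30 bases of the plus strand of GRCh38, written 5′ to 3′, and the capitals mark the κB match. A match on either strand counts, so the run of G may stand for either orientation, and a run of 11 capitals holds overlapping matches.
NFKBIA, chr14:35403953-35403982: caggcgcccaGGGACTTTCCgcccccctcc
IL4I1, chr19:49897855-49897884: gaaggaagatGGGAAACTCCCgcagtaaat
IL32, chr16:3065294-3065323: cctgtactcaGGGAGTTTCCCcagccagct
SQSTM1, chr5:179819063-179819092: agcaggggccGGGGATCCCCCtattacgac
SQSTM1, chr5:179819156-179819185: ggccctgccaGGGGGTTCCCgccgcgcctt
NFKB2, chr10:102394461-102394490: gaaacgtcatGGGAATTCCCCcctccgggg
NFKB2, chr10:102394490-102394519: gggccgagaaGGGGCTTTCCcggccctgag
BIRC3, chr11:102317275-102317304: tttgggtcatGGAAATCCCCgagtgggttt
BIRC3, chr11:102317339-102317368: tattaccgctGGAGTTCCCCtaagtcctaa
ZBTB17, chr1:15985897-15985926: tctgtaaacaGGAATTTCCCcacatcaatc
MITD1, chr2:99181078-99181107: tctctttctaGGGACTTTCCtgagtgggag
The match at NFKBIA and that at MITD1 are the same 10 bases. SQSTM1, NFKB2 and BIRC3 each held 2 separate matches in their bin.

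Binding of 4-fold or more over input was found for 1288 of 19962 genes (6.45%), on 1054 different bins. A ratio of 10 or more was reached by 231 genes on 190 bins, and a ratio of 20 or more by 34 genes on 31 bins. The median gene had a ratio of 1.41. When 4-fold was required in each of the 6 ChIP libraries, 379 genes remained (1.9%). The number also depended on the ERβ libraries. With the 3 mock ChIP libraries alone 633 genes reached 4-fold, with the 3 ERβ libraries alone 2009, and without ERβ replicates 2 and 3, which had the highest signal, 715.

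**Figure D1:**
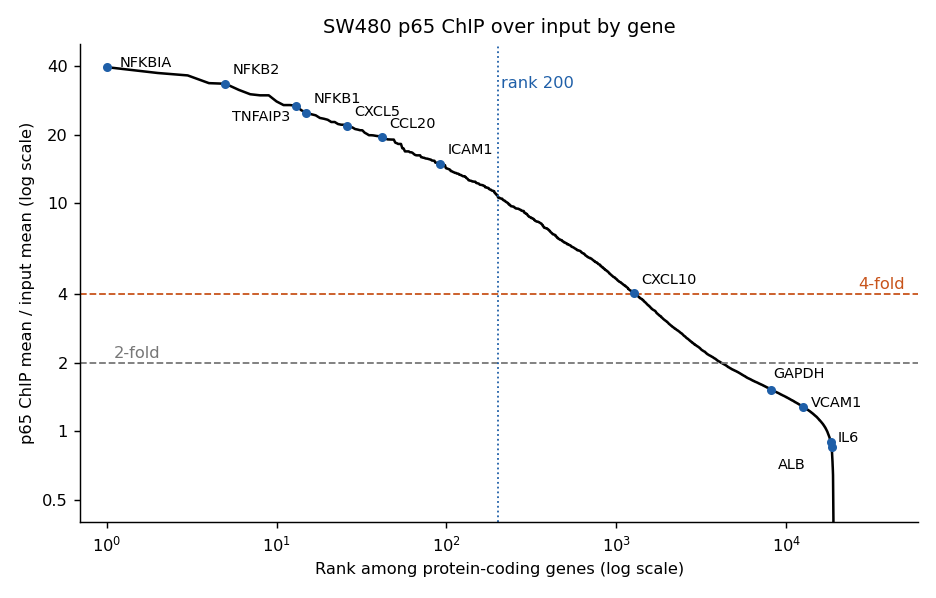
Ratio of the mean of the 6 SW480 p65 ChIP libraries to the mean of the 2 inputs (y axis, log scale). The x axis is the rank of each protein-coding gene with a readable window (log scale). Dashed lines mark 4-fold and 2-fold, the dotted line marks rank 200, and blue points mark named genes, from NFKBIA at 39.6 down to IL6 at 0.901 and ALB at 0.854.

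The 200 highest-ranked genes had a median ratio of 14.2 and lay on 164 bins, of which 31 served 2 or more genes. In these bins the median ChIP signal was 8.73 and the median input signal 0.565. At 158 of the 164 bins the ratio was 4 or more in each of the 6 libraries. The limit at rank 200 does not mark a step: JUNB and KBTBD2, the last 2 inside it, had a ratio of 10.9, and LRCH3 and RNASEK at the next ranks 10.6. For 161 of the 200 genes their own TSS was the nearest one to the bin, so for the other genes the bin may belong to a neighbour.

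NFKBIA, which encodes IκBα, had the highest ratio of all genes at the floor used, 39.6, in its gene body 848 bp downstream of the TSS. The signal there was 24.1, 21.3 and 14.7 in the mock libraries and 20.6, 36.4 and 25.6 in the ERβ libraries, against 0.821 and 0.380 in the mock and ERβ inputs. All ChIP values were far above both inputs, and the mock and ERβ values overlapped.

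IL4I1, a secreted amino acid oxidase of immune cells, ranked second with 37.3, in an intron of the gene annotation 1014 bp upstream of the canonical TSS. Its signal was 8.24, 7.97 and 5.75 in mock cells and 16.7, 20.7 and 19.0 in ERβ cells, with inputs of 0.400 and 0.210. The mean of these inputs is below the floor, so the floor sets this ratio. With a floor of 0.2 it would lie above that of NFKBIA. At IL4I1 the ERβ values lay above all mock values. IL32, a proinflammatory cytokine, followed with 36.4 at 339 bp upstream of the TSS. Its signal was 9.17, 8.53 and 11.5 in mock and 10.5, 21.0 and 16.9 in ERβ cells.

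SQSTM1 encodes p62, an adaptor of selective autophagy that also takes part in NFκB signaling. Its ratio was 33.7, with a signal of 17.4, 12.5 and 12.3 in mock and 18.5, 27.9 and 18.6 in ERβ cells. BIRC3, which encodes the ubiquitin ligase cIAP2 that protects cells from TNFα-induced death, had a ratio of 31.4 and its bin 183 bp upstream of the TSS. Its signal was 20.5, 19.6 and 15.1 in mock and 19.5, 33.9 and 22.2 in ERβ cells, and the groups overlapped.

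TNFAIP3 encodes A20, a ubiquitin-editing inhibitor of NFκB. Its ratio was 26.8, and the bin was centred 42 bp from the TSS. The signal was 25, 24.4 and 19.5 in mock cells and 16.1, 30.7 and 23.9 in ERβ cells. The groups overlapped, and the ERβ values spread more widely.

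The other bins of the leading 25 genes lay at genes of varied functions. ZBTB17, a zinc finger factor that partners MYC, ranked seventh with 30.1, but its bin lay 9800 bp upstream between genes. MITD1 and MRPL30, the latter a mitochondrial ribosomal protein, share a bin at their divergent promoters with a ratio of 29.8. The bin assigned to THSD8, with 28, lay in an intron of HOOK2 and was nearest to the TSS of JUNB, an AP-1 subunit, whose own bin is another one with a ratio of 10.9. The THSD8 bin held 4 κB matches, and its signal was 19.0, 18.1 and 22.2 in mock and 21.2, 37.8 and 28.9 in ERβ cells. SYS1 and its readthrough gene SYS1-DBNDD2 shared a bin with 27.0, and KCTD11 and TMEM95 one with 22.7. CD83, a surface protein of activated immune cells, had 24.6, YAF2 23.7, KIF2C, a mitotic kinesin, 23.3, HMGXB4 22.3, NINJ1, a membrane protein of lytic cell death, 22.1 and EPHA2, a receptor tyrosine kinase, 22.1. RAB22A, an endosomal GTPase, had 23.5 and no κB match in its bin.

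**Figure D2:**
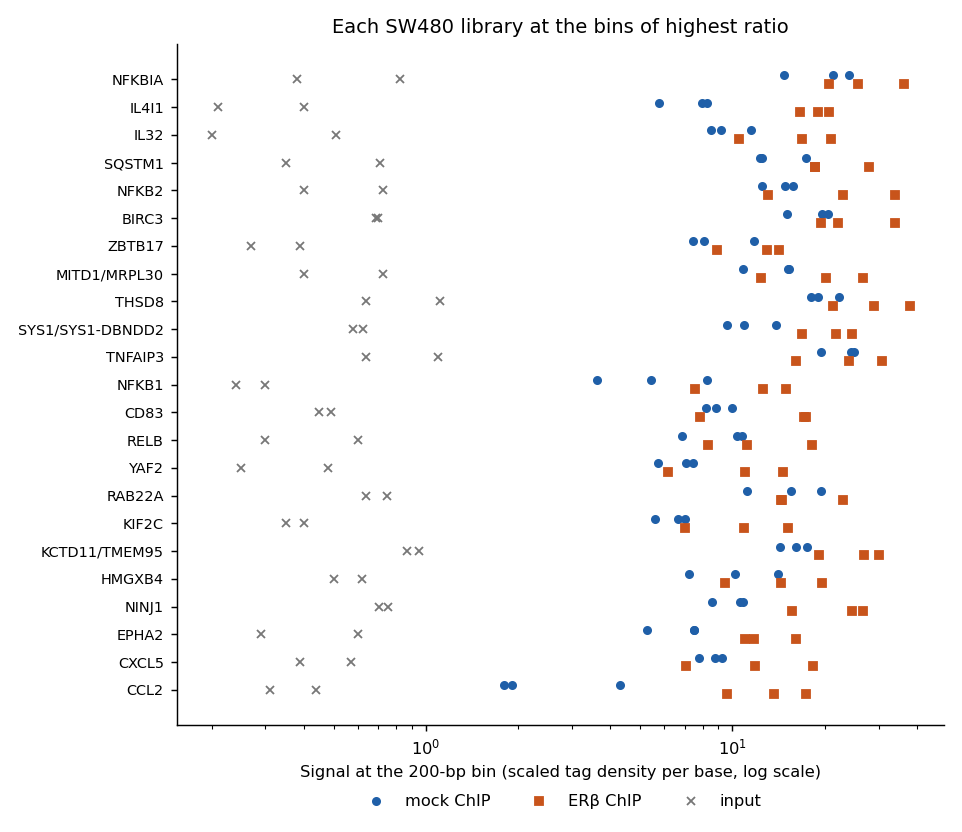
Signal of each SW480 library (x axis, scaled tag density per base, log scale) at 23 of the 24 bins of highest ratio (rows, named by up to 2 genes). Blue circles are mock ChIP, orange squares ERβ ChIP and grey crosses inputs, 1 point per library, and every ChIP point lies to the right of the inputs of its row.

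All 5 genes of NFκB subunits reached 4-fold, against 6.45% of all genes, and 4 of them did so in each of the 6 libraries. NFKB2, the p100 and p52 subunit, had a ratio of 33.5, NFKB1, the p105 and p50 subunit, 25, RELB 24.3, REL 13.5 and RELA, the gene of p65, 6.97. At NFKB2 the signal was 12.5, 15.7 and 14.8 in mock and 13.1, 34 and 22.9 in ERβ cells. RELA was the weakest of them, with 3.20, 3.64 and 3.59 in mock and 4.28, 9.75 and 9.39 in ERβ cells, and no κB match in its bin. The lists of genes were chosen with earlier results of these data known, so their counts are a description.

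Of 6 IκB genes, 5 reached 4-fold (83.3%, beside 6.45% of all genes), in each of the 6 libraries. Besides NFKBIA they were BCL3, an atypical IκB that acts in the nucleus, with 19.9, NFKBIB with 16.9, NFKBIZ with 13.8 and NFKBIE with 13.2. NFKBID had 2.79. Of 12 genes of ubiquitin-dependent feedback, TNFAIP3, TNIP1, a binding partner of A20, with 21.1, and CYLD, a deubiquitinase, with 9.54 reached 4-fold (25%), in each of the 6 libraries. A further 8 were under 2-fold, where 78.1% of all readable genes lay, among them TNIP2 with 1.80, TNIP3 with 0.622, TAX1BP1 with 1.15 and ZC3H12A with 1.70. Of 23 upstream kinases and adaptors, 5 reached 4-fold (21.7%), 2 of them in each of the 6 libraries. The highest were MAP3K8, a kinase of the MAPK cascade, with 11.9, IKBKE with 10.0 and IKBKB, the catalytic IKKβ, with 6.78, while CHUK, the other catalytic IκB kinase, had 1.73 and MAP3K7, the kinase TAK1, 1.14.

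The CXC chemokines that attract neutrophils stood at high ratios. Of 8 genes, 6 reached 4-fold (75%, beside 6.45% of all genes), 5 of them in each of the 6 libraries, and 5 were among the top 200. CXCL5 had 21.9, CXCL1 16.7, CXCL3 15.6, CXCL8 12.9, CXCL2 11.9 and CXCL6 4.48. The platelet genes PPBP and PF4 of the same chromosomal cluster had 1.34 and 0.954. The CXCL1 bin, 92 bp upstream of the TSS, had a signal of 3.32, 4.69 and 6.21 in mock and 9.81, 12.6 and 16.8 in ERβ cells. CXCL8, the gene of interleukin 8, had 6.66, 4.75 and 4.57 in mock and 4.58, 9.97 and 6.14 in ERβ cells. The ERβ values were separate from the mock values at CXCL1 and overlapped them at CXCL8.

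Of 29 other chemokine genes, 4 reached 4-fold (13.8%, beside 6.45% of all genes), 2 of them in each of the 6 libraries: CCL2, which attracts monocytes, with 21.7, CCL20, which attracts cells with the receptor CCR6 to mucosa, with 19.5, CCL21 with 6.29 and CXCL10 with 4.04. A further 20 were under 2-fold and 3 not readable, which is close to the share over all genes, 78.1% of readable ones. Among the 20 were CXCL9 with 1.08, CXCL11 with 1.56, CXCL12 with 1.51 and CXCL13 with 1.61. Of 35 cytokine genes, 9 reached 4-fold (25.7%), 3 of them in each of the 6 libraries, led by IL32, LIF, a cytokine of the interleukin 6 family, with 19.4, and IL17C, an epithelial cytokine, with 8.58. Among the 21 under 2-fold were IL1A with 1.42, IL1B with 1.00, IL1RN with 1.34 and IL2 with 0.901.

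At IL6, a textbook NFκB target, no binding was seen within the window. The signal was 0.636, 0.879 and 0.791 in mock and 0.725, 0.911 and 0.923 in ERβ cells, with inputs of 1.26 and 0.540. The ChIP values lay between both inputs.

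Of 21 genes of cell survival and of TRAF adaptors, 7 reached 4-fold (33.3%, beside 6.45% of all genes), 3 of them in each of the 6 libraries, and 7 were under 2-fold. After BIRC3 the highest were TRAF3 with 20.9 and BIRC2, the gene of cIAP1, with 15.9, while BIRC5 had 1.36, BIRC7 1.90, TRAF5 1.69 and TRAF6 1.34. Of 16 pro-apoptotic genes, 7 reached 4-fold (43.8%), 2 of them in each of the 6 libraries, and 6 were under 2-fold. The highest were BID, a BH3 protein cleaved by caspase 8, with 20.9, BBC3, the gene of PUMA, with 11.6, and BIK with 5.86. BAX had 1.87, BAK1 1.23, BMF 1.28 and HRK 1.29. The BID bin lay 7432 bp upstream of its TSS between genes, and its signal was 9.21, 6.22 and 9.41 in mock and 12, 16.6 and 17.3 in ERβ cells.

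Of 27 TNF receptor genes, 6 reached 4-fold (22.2%, beside 6.45% of all genes), 2 of them in each of the 6 libraries, and 15 were under 2-fold, where 78.1% of all readable genes lay. TNFRSF18 and TNFRSF4, costimulatory receptors of T cells known as GITR and OX40, shared a bin with 13.9, and TNFRSF10B, the TRAIL receptor DR5, had 12.2. TNFRSF1A, the main receptor of TNFα, had 1.80, LTBR 1.52, CD40 1.22 and FAS 1.96. Of 18 TNF ligands, CD70 alone reached 4-fold, with 6.56, a share of 5.56% that is near that of all genes. TNF, LTA and LTB are in windows without input signal and cannot be read.

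Among 23 immediate early genes, 9 reached 4-fold (39.1%, beside 6.45% of all genes), 5 of them in each of the 6 libraries, with the ZFP36 family of proteins that destabilise messenger RNA in the lead: ZFP36 had 12.3, ZFP36L2 10.5 and ZFP36L1 10.3. KLF4 had 0.938, KLF5 0.977 and SGK1 1.15. Of 14 AP-1 genes, MAFF, a small MAF protein, with 11.5 and JUNB with 10.9 reached 4-fold (14.3%), and 9 more lay between 2-fold and 4-fold, FOSL1 with 3.32 the highest. FOS had 1.87, BATF2 1.57 and MAFG 1.95. Of 9 interferon regulatory factors, 3 reached 4-fold (33.3%), 1 of them in each of the 6 libraries, IRF1 with 15.6, IRF5 with 7.88 and IRF2 with 7.15. Of 28 interferon-stimulated genes 5 did so (17.9%), 3 of them in each of the 6 libraries, led by OAS3 with 12, ISG15 with 9.48 and IFIH1, a sensor of viral RNA, with 9.08, and 20 were under 2-fold, near the 78.1% of all readable genes, the IFIT genes among them (IFIT1 1.13, IFIT2 1.56, IFIT3 1.92 and IFIT5 1.21).

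Of 12 adhesion molecules, ICAM1 with 14.9 and ICAM2 with 6.48 reached 4-fold (16.7%, beside 6.45% of all genes), 1 of them in each of the 6 libraries, and the other 10 were under 2-fold, near the 78.1% of all readable genes. ICAM1, the endothelial and epithelial ligand of leukocyte integrins, had a signal of 3.40, 2.84 and 5.32 in mock and 9.10, 12 and 12.5 in ERβ cells. VCAM1, another adhesion gene known as an NFκB target of endothelium, had 0.375, 0.430 and 1.07 in mock and 0.540, 0.334 and 0.416 in ERβ cells, with inputs of 0.456 and 0.370, so that mock replicate 3 alone lay well above the inputs. Of 16 proteases and their regulators, PLAU, the urokinase, with 8.09, PLAUR with 7.21, MMP9 with 5.90 and PLAT reached 4-fold (25%), none of them in each of the 6 libraries, and MMP1 had 1.47, MMP2 0.915, MMP3 1.24 and MMP10 0.683.

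Of 27 genes of mucosal defence, 6 reached 4-fold (22.2%, beside 6.45% of all genes), 1 of them in each of the 6 libraries. The mucin MUC5AC had 19.7, LCN2, an iron-binding defence protein, 6.09 and SAA2, an acute phase protein, 5.69, the last 2 with 4-fold in the 3 ERβ libraries alone. At LCN2 the signal was 0.470, 0.800 and 0.430 in mock and 4.06, 4.95 and 3.00 in ERβ cells. The groups did not overlap, and LCN2 counts as bound through the ERβ libraries. DEFB1 had 1.16, DEFB4A 0.346, SAA4 1.01 and PIGR 1.4. Among 18 antioxidant genes, 3 reached 4-fold (16.7%), 1 of them in each of the 6 libraries, NFE2L2, the gene of NRF2, with 8.57, SOD2, a mitochondrial superoxide dismutase, with 5.75, and GPX4 with 4.14. Of 12 genes of prostaglandin synthesis and signaling PTGER4 alone did so, with 4.46, a share of 8.33% that is near that of all genes, and PTGS2, the gene of COX-2, had 1.51.

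Of 23 circadian clock genes, 7 reached 4-fold (30.4%, beside 6.45% of all genes), 3 of them in each of the 6 libraries, and 9 were under 2-fold. DBP, a clock output factor, had 12.4, but its bin was nearest to the TSS of CA11. NR1D2, the gene of REV-ERBβ, had 8.72 and CRY2 7.25, while PER3 had 1.53, CRY1 1.04, RORA 1.34 and HLF 1.17. Of 23 WNT pathway genes, 6 reached 4-fold (26.1%), none in each of the 6 libraries. WNT10A had 8.20, CTNNB1, the gene of β-catenin, 6.38 and WNT10B 6.23, against 1.52 at WNT3A, 1.55 at WNT5A, 1.5 at WNT5B and 1.79 at WNT7A. Of 26 cell cycle genes, CCND1, the gene of cyclin D1, had 7.32, MCM7 6.43 and MCM2 5.73, and no other reached 4-fold (11.5%). None of these 3 did so in each of the 6 libraries.

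Some lists lay at the share of all genes, 6.45%. Of 72 ribosomal protein genes 5 reached 4-fold (6.94%), led by RPS27A with 8.31, and of 18 housekeeping genes EEF1A1 alone (5.56%), with 4.06, and GAPDH had 1.53 and ACTB 1.45. No gene of the EGF family (11), of the TGFβ pathway (17), of hepatocytes (14), of globins (8), of blood cells (17) or of the RUNX factors (4) reached 4-fold, and in lists of this size a count of 0 is near the share of all genes. The medians of the hepatocyte, globin and blood cell genes were 1.2, 1.24 and 1.29. Other lists of genes of other cell types each held 1 gene at 4-fold, also near the share of all genes. These were SYT1 of 14 neuronal genes (7.14%), with 4.08, and CKM of 14 muscle genes (7.14%), with 7.01. Of 12 genes of fibroblasts and endothelium it was PDGFRA (8.33%), with 8.82. CKM and PDGFRA reached 4-fold in each of the 6 libraries. ALB had 0.854, with a ChIP signal from 0.336 to 0.453. Of 19 genes that mark the colon epithelium, 2 reached 4-fold (10.5%), ELF3 with 7.55 the higher, and CDX1 had 1.26, CDX2 1.06, HNF4A 1.32 and GATA6 1.36. The study names CDX2 among the genes with a p65 site in SW480 and not in HT29. Where that site lies was not compared with the window used here. ESR2, the gene of ERβ itself, had 1.79.

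**Figure D3:**
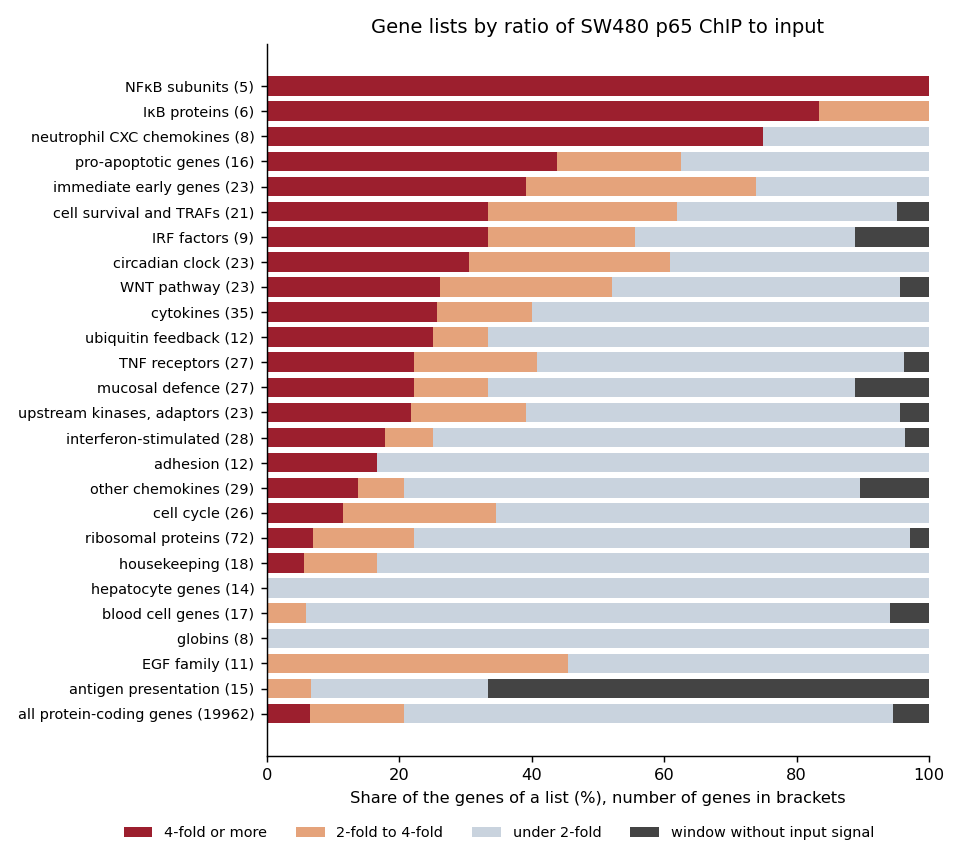
Share of the genes of each list drawn (x axis, %), a part of the 41 lists, with the number of genes in brackets. Dark red is 4-fold or more, orange 2-fold to 4-fold and light blue under 2-fold. Dark grey, labelled as without input signal, marks windows that were not readable. NFκB subunits (100%), IκB genes (83.3%) and neutrophil chemokines (75%) lead, and all protein-coding genes (6.45%) are the bottom row.

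Genes with a ratio under 2 at their bin were the majority, and binding outside the window was not looked at. Of 18891 genes with a readable window, 14755 had a ratio under 2 (78.1%), and the median ChIP signal in the 6 libraries at their bins ranged from 0.713 to 0.850. A window was called readable when the input was at 0 in no more than 50% of its bins. This limit was set after the data were seen. The other 1071 genes cannot be called unbound, and 827 of them had no signal in any of the 8 libraries. Of 204 genes with a TSS between 28 and 34 Mb of chromosome 6, the region of the major histocompatibility complex, 180 were not readable. They include HLA-B, TAP1, TAP2, PSMB9 and the NFκB targets TNF, LTA, LTB and IER3. Of the 15 genes of antigen presentation by MHC class I 10 were not readable and none reached 4-fold.

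A few loci had high ChIP signal without enrichment. At 25 genes on 16 bins the ChIP mean was at least 3 and the ratio under 2. The highest was MYC, with 7.86, 7.22 and 6.67 in mock and 6.04, 9.06 and 7.53 in ERβ cells. The inputs were 6.70 and 4.64 at the same bin, so its ratio was 1.30. In HT29 the mean input at that bin was 1.80. ETNK1, an ethanolamine kinase, showed the same form, with a ChIP mean of 3.77 and an input of 2.55 in SW480 against an input of 0.854 in HT29. TM7SF3, STK38L, DNAI7 and C2CD5, like ETNK1 on chromosome 12, and PDF, ESRP2, MTSS2 and PKD1L3 on chromosome 16 were also on this list. Other loci on it had a similar input in both lines. The mean input in SW480 and HT29 was 4.26 and 4.47 at TAF11L5, 4.06 and 3.71 at RGS19, and 1.96 and 1.75 at NBPF1.

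A κB match within the 200-bp bin was found in 138 of 164 bins of the top 200 genes (84.1%). The share was 62.5% of 890 bins at 4-fold below rank 200, 35.8% of 2420 bins between 2-fold and 4-fold, and 8.73% of 13262 bins under 2-fold. Over all 16572 other bins it was 15.6%. It thus fell with each class of lower ratio. In 28 of the 164 bins there were 2 or more separate matches. The most frequent words were GGAAATTCCC and GGAATTTCCC, each counted with its reverse complement and found in 20 bins, and GGAAAGTCCC, the reverse complement of the word at NFKBIA, in 19 bins. In most of their bins the first 2 words were overlapping matches of the same site, as at CXCL1 and REL, so their counts are largely of the same sites.

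An AP-1 match (TGACTCA, whose reverse complement is TGAGTCA) was in 10.4% of the top bins and in 3.66% of all other bins. It was found in 16.4% of the 67 top bins over 1 kb from the TSS and in 6.19% of the 97 bins within 1 kb. Of the 17 top bins with AP-1, 15 also held κB, which is near the share of κB in all top bins, 84.1%. The RUNX word TGTGGTT or TGTGGTC was in 5.49% of the top bins and 5.71% of the others, and the FOXA word TGTTTAC in 4.88% and 1.61%, on either strand in each case. The RUNX share thus differed little, and the FOXA share rests on 8 top bins. RUNX was in 8.96% of the top bins over 1 kb from the TSS and in 3.09% of those within 1 kb, on 6 and 3 bins. The study describes RUNX1 and FOXA1 motifs as fairly frequent in its SW480 sites. It searched sites over the whole genome for motifs de novo, so its shares and those of exact words here are unlike measures. The distance to the TSS also differed little: 59.1% of the top bins and 60.3% of all other bins lay within 1 kb. Of the top bins 72 lay between genes, 77 in introns alone and 15 in an exon of a canonical transcript.

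The shape of the signal about the κB matches was averaged over bins. Over the 138 top bins with a match, the signal within 50 bp of it was 8.35, 9.06 and 8.64 in the mock libraries and 9.96, 19.2 and 16.2 in the ERβ libraries. At 750 to 1000 bp it was between 0.619 and 0.858 in these libraries. The mock input was 0.719 within 50 bp and 0.562 at 750 to 1000 bp, and the ERβ input 0.466 and 0.445. At 1146 κB matches in readable bins under 2-fold the signal within 50 bp was only 0.796 to 1.29 in the ChIP libraries, against inputs of 0.767 and 0.525. The bins of both sets were chosen by their signal and each match lies inside its bin, so the height of the first set above its flanks and the low signal of the second are fixed by the choice. Whether the signal is centred on the match rather than on the bin was not tested.

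**Figure D4:**
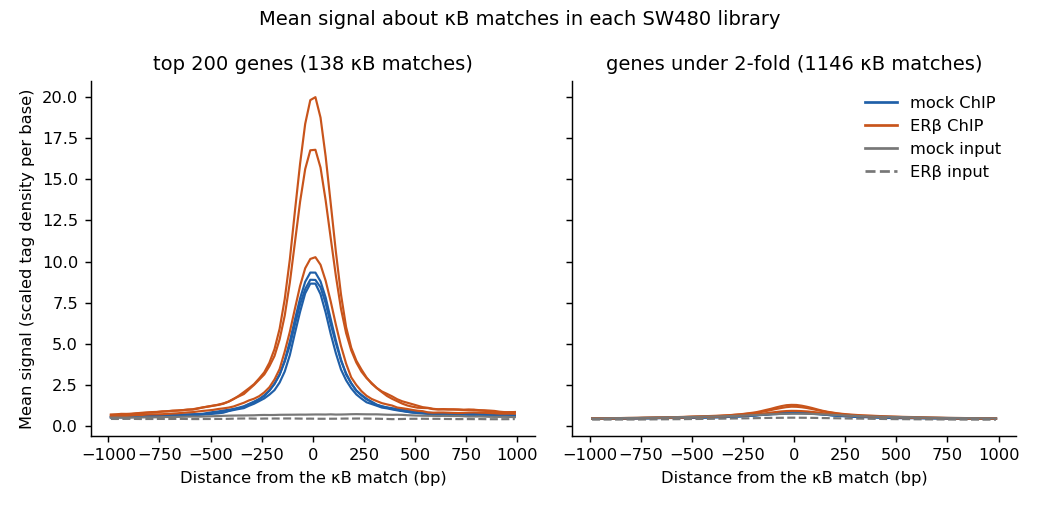
Mean signal (y axis, scaled tag density per base) by distance from the κB match nearest the bin centre (x axis, bp, steps of 25 bp), for 138 bins of the top 200 genes (left) and 1146 readable bins under 2-fold (right). Each line is 1 library, with mock ChIP in blue, ERβ ChIP in orange and inputs in grey, and ERβ replicates 2 and 3 form the highest lines on the left.

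To ask whether the bound loci differed with ERβ, the log2 signal was compared between the 3 ERβ and the 3 mock ChIP libraries with limma over 19129 genes. Of all genes 1104 were higher in ERβ cells (5.77%) and 15 lower (0.0784%) at an adjusted p under 0.05. At the 164 top bins, 32 were higher and 0 lower, and at an unadjusted p under 0.05 these were 85 and 0. The median difference was 0.73 on the log2 scale, beside 0.13 over all genes. Libraries of the same replicate number deviated together, though 3 libraries per group cannot settle a pairing. With replicate number as a block, 65 top bins and 1923 of all genes (10.1%) were higher, and 30 genes (0.157%) were lower. All 164 bins had a higher mean in ERβ cells, and at 79 of them the groups did not overlap, against 17.3% of all genes. All ERβ libraries lay below all mock libraries at 3.06% of all genes and at 0 top bins. The choice of bins by the mean of all 6 libraries favours loci high in ERβ cells, where the signal is larger, and the counts for the top bins are therefore no independent result.

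The libraries within a group were uneven. Their medians at the top bins were 5.61, 6.29 and 6.57 in mock cells and 7.14, 14.2 and 12.1 in ERβ cells, with ERβ replicate 1 close to the mock libraries. Without ERβ replicate 1 the number of top bins higher in ERβ cells was 129, without replicate 2 it was 15 and without replicate 3 it was 8. Without mock replicates 1, 2 and 3 it was 7, 8 and 17. What set the libraries apart was not tested. The ERβ input was lower than the mock input both at the top bins, with medians of 0.430 and 0.683, and over all readable genes, with 0.470 and 0.715.

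The 5 largest differences among the top 200 were at CCL2, TNFRSF18 with TNFRSF4, CLIP2, RANGAP1 and TIFA, with ERβ cells higher. Their mock ratios lay below the limit of the top 200, so that the ERβ libraries brought these bins into it, and the differences are a description without a test. At CCL2, 2584 bp upstream of the TSS, the signal was 1.80, 1.92 and 4.28 in mock and 9.61, 17.4 and 13.7 in ERβ cells, a difference of 2.02 ± 0.33 (SE, log2). At TNFRSF18 and TNFRSF4 the signal was 1.39, 1.17 and 1.93 in mock and 5.0, 10.1 and 11.2 in ERβ cells, a difference of 1.91 ± 0.29. At both bins all ERβ values lay above all mock values.

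CLIP2, a microtubule-binding protein, had 1.88, 1.21 and 2.26 in mock and 6.94, 10.1 and 11.4 in ERβ cells, a difference of 1.90 ± 0.30. RANGAP1, the GTPase activator of nuclear transport, had 1.41, 1.21 and 1.22 against 5.04, 9.68 and 7.71, a difference of 1.86 ± 0.28. TIFA, an adaptor that binds TRAF proteins, had 0.866, 1.15 and 2.00 against 4.07, 8.30 and 6.78, a difference of 1.64 ± 0.28. In the mean of the mock libraries the ratio to input at these bins was 7.11 at CCL2, 4.89 at CLIP2, 4.04 at TNFRSF18, 3.82 at TIFA and 3.66 at RANGAP1, against 33.3 at NFKBIA. The groups overlapped at NFKBIA, whose difference was 0.43 ± 0.50 (limma adjusted p = 0.711), and TNFAIP3, whose difference was 4.19e-05 ± 0.50.

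The share of SW480 bins with an HT29 ratio of 4 or more depended on the rank in SW480. It was reached at 152 of the 164 top bins (92.7%), with a median HT29 ratio of 11.6, and at 555 of 890 bins at 4-fold below rank 200 (62.4%), with a median of 5.05, beside 6.31% of all genes at their SW480 bin. NFKBIA had 31.9 in HT29, NFKB2 26.8 and TNFAIP3 22.0. There were 3 top bins with an HT29 ratio under 2: UNC93A with 1.52, CHST15 with 1.52 and INAVA with 1.24.

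For the comparison of the lines the bin was chosen on all 12 ChIP libraries, and limma was run over 19190 genes. The mean of the mock and ERβ groups of SW480 was set against that of HT29, so the conditions are pooled. The study reports more p65 binding with ERβ in SW480 and less in HT29. The counts therefore do not give the difference between the mock cells of the lines. SW480 was higher at 5887 genes (30.7%) and lower at 1082 (5.64%). This split depends on the scaling: when each library was divided by its median over genes under 2-fold, 2416 genes were higher (12.6%) and 2834 lower (14.8%). In the comparison of the lines a top bin stands for the gene of that bin, read at the bin chosen on all 12 libraries, which may be another one. Of these top bins 48 were higher and 5 lower, 26 and 22 after that scaling. With the replicate block 30.2% of all genes were higher and 5.5% lower, and of the top bins 2 were lower. Since these genes were chosen by SW480 signal, the counts are a description.

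The 5 largest excesses in SW480 were held by MYMK, SEMA3B, XAF1, INAVA and UNC93A. They are given as a description without a test, since the SW480 signal chose these genes. MYMK shares its bin with ADAMTSL2, and the bin lay 3 bp from the ADAMTSL2 TSS and 9742 bp from that of MYMK. There the SW480 libraries ranged from 6.10 to 16 and the HT29 libraries from 0.507 to 1.48, a difference of 2.59 ± 0.24. SEMA3B, a secreted guidance protein, ranged from 9.12 to 20.1 in SW480 and from 1.04 to 3.45 in HT29, a difference of 2.15 ± 0.28. XAF1, an antagonist of the apoptosis inhibitor XIAP, ranged from 4.90 to 15.3 and from 0.647 to 1.46, a difference of 2.14 ± 0.24. INAVA, a regulator of innate signaling at epithelial junctions, had a difference of 2.05 ± 0.22 and UNC93A one of 1.98 ± 0.21. In all of these the ranges of the lines were separate.

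The 5 bins lower in SW480 were at TIFA, CEACAM16, NFKBIZ, CXCL8 and BBC3. These genes too were chosen by SW480 signal, so the differences and p-values are a description. TIFA ranged from 0.866 to 8.30 in SW480 and from 3.61 to 11.7 in HT29, a difference of -0.95 ± 0.28 (limma adjusted p = 0.00555). All ERβ values of SW480 at TIFA lay within the HT29 range and all mock values below it, so the difference rests on the mock libraries. CXCL8 ranged from 4.57 to 9.97 and from 8.92 to 16.4, a difference of -0.78 ± 0.29 (limma adjusted p = 0.0297). The difference was -0.92 ± 0.30 at CEACAM16 (limma adjusted p = 0.0137), -0.80 ± 0.30 at NFKBIZ (limma adjusted p = 0.0337) and -0.73 ± 0.29 at BBC3 (limma adjusted p = 0.0442). The ranges of the lines overlapped at all 5 bins. With the replicate block TIFA (limma adjusted p = 0.0111) and CEACAM16 (limma adjusted p = 0.0266) were past the threshold and the other 3 bins were not. When the signal was divided by the input of the line, the direction at CXCL8 and CEACAM16 was turned.

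**Figure D5:**
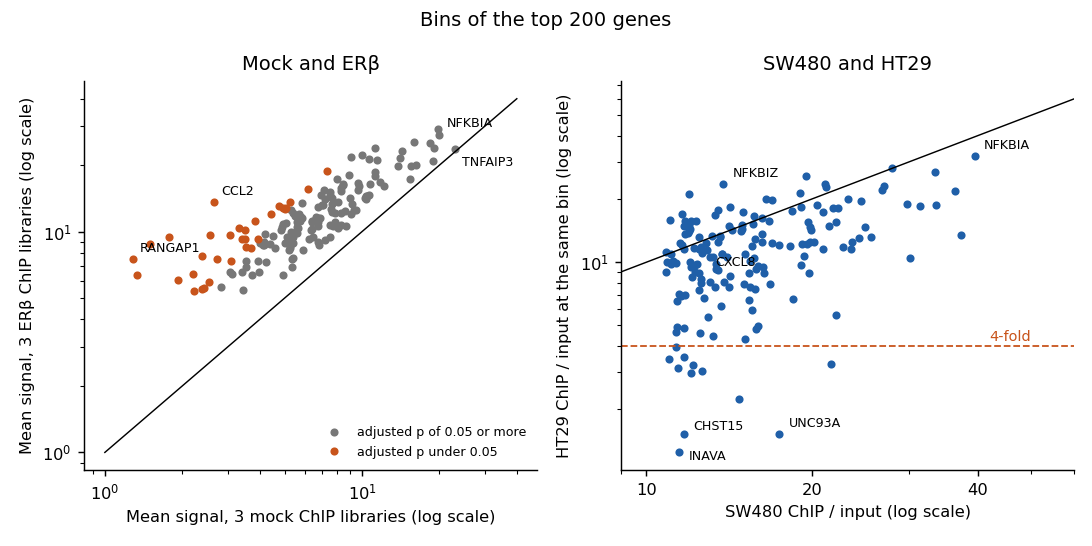
Left, mean signal of the 3 ERβ ChIP libraries (y axis) against that of the 3 mock ChIP libraries (x axis) at the 164 bins of the top 200 genes, with the 32 bins past an adjusted p of 0.05 in orange. Right, ratio of ChIP to input in HT29 (y axis) against SW480 (x axis) at the same bins, where 152 lie at or above the dashed line of 4-fold. All axes are log scales and the solid lines mark equal values.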

How the data were processed

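p65 ChIP-Seq and input libraries of SW480 and HT29 cells were used, grouped by the submitters' labels. According to the study's methods, the authors mapped single reads uniquely to GRCh38 with STAR, and the deposited coverage signal tracks came from HOMER per the labels, with a tag density per base scaled to nearly the same total in every library. Depth can therefore not be read from the values, count models were not used, and the number of libraries limits the precision. The labels list the p65 antibody on the inputs as well, and these were read as inputs. 

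Signal was averaged in fixed bins of 200 bp with Python 3.11.15, numpy 2.4.6 and pandas 2.3.3. TSS came from canonical transcripts of GENCODE release 44 on the autosomes and X. Genes whose bin is shared count once each over all genes, and bins once in counts of bins. ERβ was compared with mock, and SW480 with HT29, by limma 3.58.1 in R 4.3.3 on log2(signal + 1) with a trend in the variance and Benjamini-Hochberg adjustment over all genes. Fold changes on this scale understate those of low bins. The fits were also run on simulated data with independent noise in each library. The simulation held no shift of whole libraries and no effect shared by replicates, so it cannot show how the fits behave with these. The labels do not say whether replicates came from separate cultures, though the methods call them biological. Correlations over 1054 bins of the deviations from group means were 0.322, 0.150 and 0.290 between mock and ERβ libraries of the same replicate number. They were at most 0.013 otherwise, but deviations cancel within each group, so the low values follow in part from the high ones. The block takes the numbers to pair the libraries, which 3 libraries per group cannot settle. Motifs were exact matches on both strands.

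The members and the 41 gene lists were chosen with earlier results of these data known. Genes were named by rule: the 25 highest ratios with genes sharing their bins, the 3 highest members and up to 4 members under 2-fold of lists, the 5 largest differences in each direction of each comparison among the top 200, and the genes on either side of rank 200. Other genes named, such as IL6, ESR2, RELA and the genes of high input, were chosen after their values were seen. A few genes that the rule names are not reported here.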

Additional observations from a re-analysis of the deposited data

How the results depend on the processing

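The 1288 genes at 4-fold became 778 in a window of 1 kb to either side of the TSS, which kept 56% of the top 200 genes, 633 with mock ChIP alone, 2009 with ERβ ChIP alone, 379 in each of the 6 libraries and 715 without ERβ replicates 2 and 3, the last chosen after the data were seen. Leaving out 1 library gave 1019 to 1476. The 15820 genes under 2-fold, unreadable ones included, became 9274 with the ChIP mean of the 12-kb window as the reference. They were 16781 with mock ChIP alone and 13718 with ERβ ChIP alone. Of the listed genes 127 were at 4-fold, 78 with mock alone and 55 in each of the 6 libraries. With the signal divided by input, ERβ cells were higher at 7055 genes and 123 top bins and lower at 164 genes. With the replicate block the counts were 1923 and 65 higher and 30 lower. Genes higher in ERβ cells ranged from 298 (without mock replicate 1) to 2958 (without ERβ replicate 1), genes lower from 2 to 30, and top bins higher from 7 to 129. With a mean signal of at least 1, genes lower in ERβ cells were 2, and SW480 was higher than HT29 at 1813 and lower at 535. Scaled by unbound bins, SW480 was higher at 2416 and lower at 2834 genes, and at 26 and 22 top bins. Divided by input it was higher at 2871 genes and lower at 1 top bin. Top bins lower in SW480 numbered 2 with the replicate block and 2 to 5 without 1 library. The difference between lines turned to 0.088 at CEACAM16 and 0.14 at CXCL8 after division by input, and the cause was not tested. In 100 bp about the bin centre κB was in 45.1%, AP-1 in 4.88% and FOXA in 1.83% of the top bins, and in 400 bp κB was in 89.6% and RUNX in 12.2%. The width of the stretch searched sets these shares. Of the alternatives for single genes, 440 ratios moved by less than the standard deviation over all 6 ChIP libraries and 60 by more. This spread includes the difference between mock and ERβ cells, so it is a wide limit. Of the single-gene differences, 220 stayed past the threshold in the same direction while 28 fell short of it. The choice of input also moved the counts. Against the mock input alone 1020 genes were at 4-fold and 16784 under 2-fold, and against the ERβ input alone 1829 and 12263. A floor of 0.7 gave 899 genes at 4-fold. Depth cannot be read from the scaled signal, and 1 input per condition leaves the error of the input unknown.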

Other observations

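Gene families were counted by their symbols after the values were seen, and their counts are a description. Of 74 histone genes 9 reached 4-fold over input (12.2%), H4C16, H2BC4, H2AC6 and H2BC11 among them. H2BC4 and H2AC6 had the same ratio, 5.73, as did H2BC11, H4C9 and H2AC12, 5.03, and H1-4 and H2BC5, 4.53. Neighbouring genes with the same ratio stand on a shared bin, so the 9 genes are fewer bins and the share counts some bins more than once. Of 515 ZNF zinc finger genes 23 did so (4.47%), and of 77 TRIM genes, many of them ubiquitin ligases, 6 (7.79%), among them TRIM47, TRIM25 and TRIM8. The share over all protein-coding genes is 6.45%.

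Of readable genes as a whole 78.1% were under 2-fold. Of 416 olfactory receptor genes 3 reached 4-fold and 354 were readable and under 2-fold. None of 53 clustered protocadherin genes reached 4-fold, and all of them were under 2-fold. Of 94 keratin-associated protein genes KRTAP5-11 alone reached 4-fold and 33 were not readable. None of 40 beta-defensin or 24 bitter taste receptor genes reached 4-fold, and of these 13 and 14 were not readable.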
